A study of Naumovozyma castellii with 24 samples.

Results

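The genes LSC1, LSC2, IDP2, MAE1, NDE1 and ALD6 encode enzymes of the TCA cycle and dehydrogenases that make or use NADH and NADPH, and their RNA was followed in Naumovozyma castellii, a budding yeast related to Saccharomyces cerevisiae. They were found by locus tag in the RefSeq annotation of N. castellii, and they are 6 of the 5648 genes in the deposited counts (LSC1 is NCAS0H02300, LSC2 NCAS0E03800, IDP2 NCAS0A08720, MAE1 NCAS0A04810, NDE1 NCAS0D01150 and ALD6 NCAS0C02220). The names were chosen from earlier results on these same libraries: LSC1, LSC2 and NDE1 had been named for CoCl2 in wild type, NDE1 for low oxygen and ALD6 for the ROX2 deletion, and the comparison that led to IDP2 and MAE1 is not recorded. For that reason no p-value is given for any of the 6 genes in those 3 comparisons, nor for IDP2 and MAE1 in any comparison of 2 groups. The adjusted p-values of the 6 genes given elsewhere describe the fits and are no independent support. All 6 genes had enough reads to be tested in both experiments, with 3 counts (IDP2) to 22232 counts (ALD6) per library.

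In S. cerevisiae, from which these names come, LSC1 and LSC2 encode the 2 subunits of succinyl-CoA ligase, the TCA-cycle enzyme that makes ATP directly. IDP2 encodes a cytosolic isocitrate dehydrogenase that makes NADPH, MAE1 the mitochondrial malic enzyme, which turns malate into pyruvate, NDE1 a dehydrogenase on the outer face of the inner mitochondrial membrane that passes electrons from cytosolic NADH to the respiratory chain, and ALD6 the main cytosolic acetaldehyde dehydrogenase, which also makes NADPH. Respiratory genes are typically held low while glucose is plentiful, and Rox1 is a repressor of hypoxic genes that acts while oxygen is present.

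The 24 libraries came from cells of the strain background DBP004 grown in YPD, a rich glucose medium, at 30 °C. In the deletion experiment, wild type (WT) and strains of genotype rox1-/-, rox2-/- and rox1/rox2-/- (here rox1, rox2 and rox1/rox2) were grown at 21% oxygen to an A600 of 1 and then for 2 h without CoCl2 or with 0.6 mM CoCl2, a cobalt salt used to mimic lack of oxygen. WT and rox2 without CoCl2 had 3 libraries each and the 6 other groups had 2. In the oxygen experiment, WT cells were started at an A600 of 0.2 and grown for 6 h at 21% oxygen (normoxia) or 1% oxygen (hypoxia), with 3 libraries each. The submitters call the replicates biological.

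Gene counts per library were 5.59 M to 12.74 M in the deletion experiment and 11.99 M to 12.18 M in the oxygen experiment. ROX1 had 191 to 216 counts in the WT libraries and 0 or 1 count in each of the 8 libraries labelled as lacking it. The ROX2 locus was not analysed here. Reads outside genes made up 14.5% in replicate 3 of rox2 and 19.9% in replicate 1 of rox2 CoCl2, against 4.52% to 10.5% in the other libraries, and results on rox2 are given without that pair where they change. Levels below are CPM, gene counts divided by the library's TMM-scaled total, log2 fold changes are given with a standard error (SE), and a gene is called where the adjusted p over all tested genes is under 0.05. In bulk RNA, fewer cells with a transcript and less transcript per cell cannot be told apart.

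**Figure D1:**
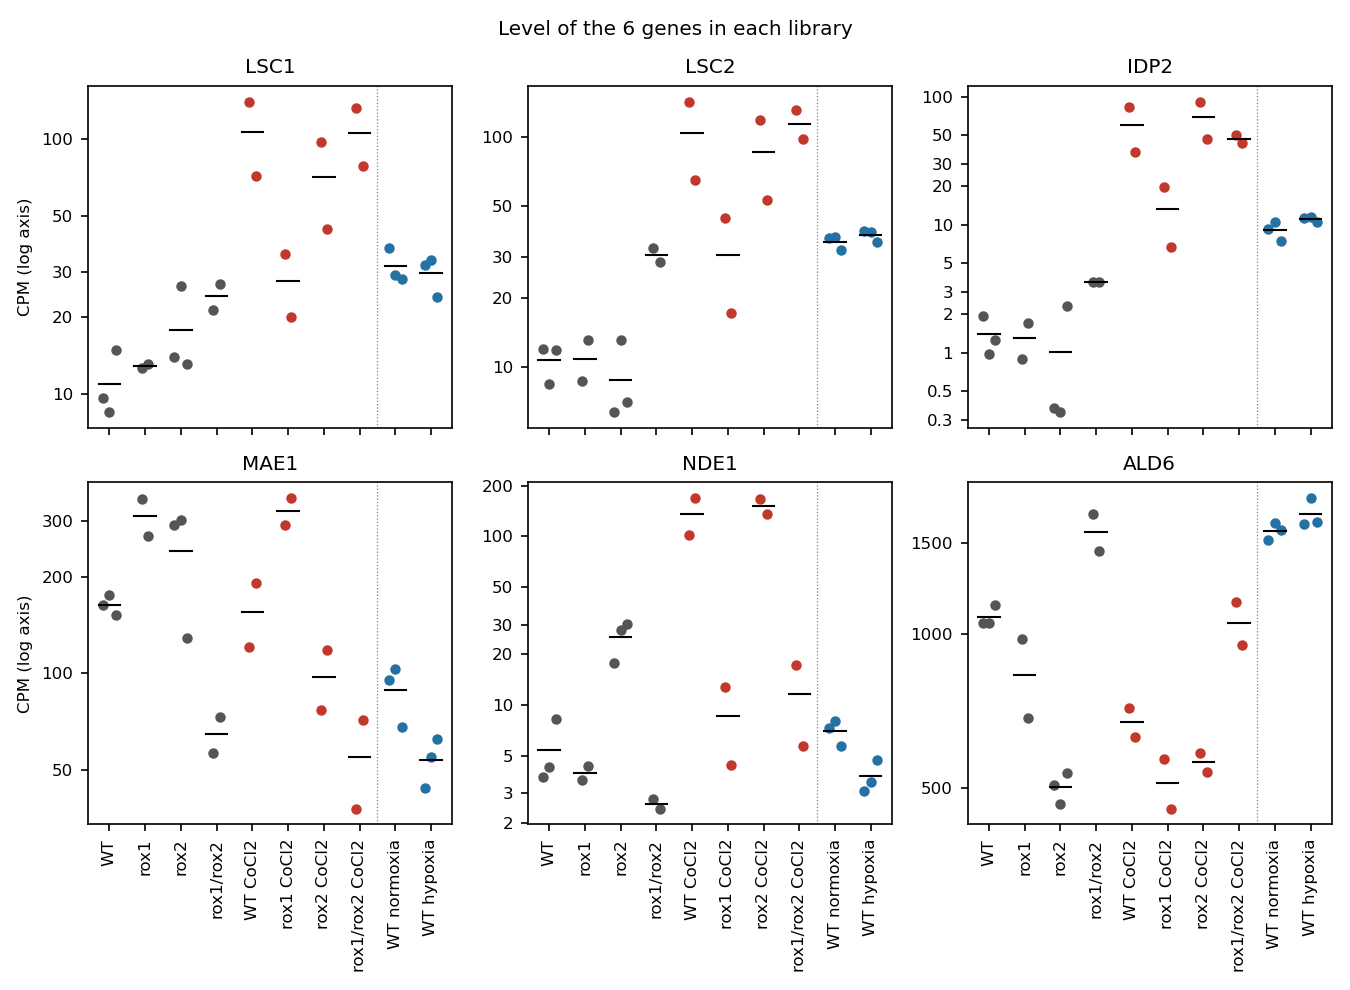
Level in CPM on a log axis (vertical) of each of the 6 genes in each of the 10 groups (horizontal). Points are libraries, black lines are group means, red marks CoCl2, blue the oxygen experiment, which was scaled apart. LSC1, LSC2 and IDP2 were higher in every CoCl2 library than in any library of the same strain without it, and NDE1 was above 100 CPM only in WT CoCl2 and rox2 CoCl2.

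The 6 genes followed 4 patterns. LSC1, LSC2 and IDP2 were higher with CoCl2 in all 4 strains, with no overlap between treated and untreated libraries of a strain. NDE1 reached a high level with CoCl2 in WT and rox2, while the strains without ROX1 stayed at or below 17.3 CPM. MAE1 had its highest mean in rox1 and its lowest in rox1/rox2 whether or not CoCl2 was added, although untreated rox1 and rox2 overlapped. ALD6, the most abundant of the 6, was lower with CoCl2 in every strain except rox2, where it was already low. At 1% oxygen the picture was another: MAE1 and NDE1 were lower, and the log2 fold changes of the other 4 genes, none called, were between -0.09 and 0.30.

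With CoCl2 in WT, 4 of the 6 genes were called higher and 1 lower. Of all 5544 genes tested, 27.7% were called higher and 19.4% lower, and since the genes were chosen on this comparison nothing is read from their count. The split depends on scaling, as 1533 genes were higher and 1074 lower with TMM against 1872 and 623 with total gene counts, which moved the median of all genes by 0.25. In rox1, 1 of the 6 was called higher (IDP2), where 4.85% of all genes were higher and 3.21% lower. In rox2, 4 were called higher and 1 lower, against 26.3% and 21.8% of all genes. In rox1/rox2, 3 were called higher (LSC1, LSC2 and IDP2), against 4.38% of all genes higher and 1.41% lower. With total gene counts the splits over all genes were 295 higher and 67 lower in rox1 against 269 and 178 with TMM, and 1794 and 701 in rox2 against 1458 and 1209. The median of all genes then stood at 0.21 for rox1, 0.22 for rox2 and 0.14 for the double deletion.

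**Figure D2:**
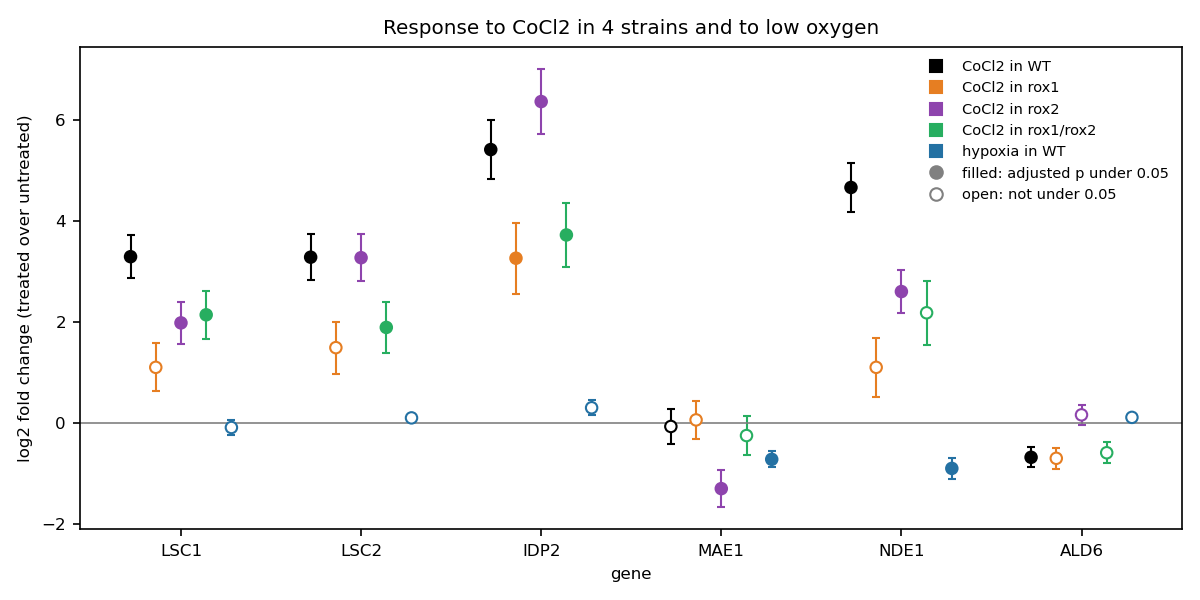
Log2 fold change with its SE (vertical) of each gene (horizontal) with CoCl2 in the 4 strains and at 1% oxygen in WT. Filled points have an adjusted p under 0.05. LSC1, LSC2, IDP2 and NDE1 had smaller changes with CoCl2 in rox1 than in WT, and changes at 1% oxygen lay between -0.90 and 0.30.

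LSC1 stood at 9.58, 8.43 and 14.8 CPM in the 3 WT libraries and at 141 and 72.0 in the 2 WT CoCl2 libraries. It was 12.6 and 13.1 CPM in rox1 and 35.2 and 19.9 in rox1 CoCl2. In rox2 it was 13.96, 26.5 and 13.1 CPM, and in rox2 CoCl2 97.9 and 44.4. Every treated library was above every untreated one of its strain in these 3 strains, and the same held in rox1/rox2, where 21.3 and 26.9 CPM compared with 133 and 78.3. The log2 fold change was 3.29 (SE 0.426) in WT, 1.10 (SE 0.477, adjusted p = 0.18) in rox1, 1.98 (SE 0.417, adjusted p = 0.00192) in rox2 and 2.14 (SE 0.473, adjusted p = 0.0184) in rox1/rox2. The rise in rox2 was 1.14 with an adjusted p of 0.0905 without replicate 3 of rox2 and replicate 1 of rox2 CoCl2. The rise in rox1/rox2 was not called without replicate 1 or 2 of rox1/rox2 or replicate 1 of rox1/rox2 CoCl2 (adjusted p 0.21, 0.121 and 0.147).

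LSC2 was at 12.0, 8.43 and 11.8 CPM in WT and at 143 and 65.1 in WT CoCl2. In rox1 it was at 8.66 and 13.0 CPM against 44.4 and 17.1 with CoCl2, and in rox2 at 6.33, 13.1 and 7.01 against 119 and 53.2. In rox1/rox2 the untreated libraries, at 33.0 and 28.7 CPM, were already above every untreated library of the other strains, and CoCl2 took them to 131 and 98.0. The log2 fold change with CoCl2 was 3.28 (SE 0.456) in WT, 1.49 (SE 0.516, adjusted p = 0.092) in rox1, 3.27 (SE 0.468, adjusted p = 0.000124) in rox2 and 1.89 (SE 0.498, adjusted p = 0.0393) in rox1/rox2. Leaving out replicate 1 or 2 of rox1/rox2 or replicate 1 of rox1/rox2 CoCl2 ended the last call (adjusted p 0.232, 0.241 and 0.213). At 1% oxygen both ligase genes overlapped with normoxia, LSC1 with 28.3 to 37.4 CPM in normoxia and 23.9 to 33.5 in hypoxia, and LSC2 with 32.2 to 36.8 and 34.9 to 39.1.

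The order of the group means was alike for the 2 subunits. For LSC1 it ran from WT CoCl2 and rox1/rox2 CoCl2 (106 CPM each) over rox2 CoCl2 (71.2), rox1 CoCl2 (27.6), rox1/rox2 (24.1), rox2 (17.9) and rox1 (12.9) to WT (10.9). Neighbours in this order had overlapping libraries except rox2 CoCl2 and rox1 CoCl2. For LSC2 it ran from rox1/rox2 CoCl2 (115) over WT CoCl2 (104), rox2 CoCl2 (86.0), rox1/rox2 (30.9), rox1 CoCl2 (30.8), rox1 (10.8) and WT (10.7) to rox2 (8.80), and the neighbours free of overlap were rox2 CoCl2 with rox1/rox2 and rox1 CoCl2 with rox1. Pearson's r between log2 CPM of the 2 genes was 0.953 over the 18 libraries of the deletion experiment, which share the treatment groups, so it is given as a description only.

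Per kb of coding length, the ratio of LSC1 to LSC2 had a median of 1.30 over the 18 libraries and 1.09 over the 6 of the oxygen experiment. Untreated rox2 stood apart, with ratios of 2.85, 2.62 and 2.42. All 15 other libraries of that experiment had ratios from 0.833 to 1.88, so the groups did not overlap. The intervals for counting error alone (95%, exact binomial) were 2.13 to 3.86, 2.09 to 3.30 and 1.62 to 3.67 in the 3 rox2 libraries, the last from 73 and 39 counts. The ratio was 2.63 ± 0.215 in rox2 (SD, n = 3), 1.32 ± 0.291 in WT (n = 3) and 1.07 ± 0.0141 in rox2 CoCl2 (n = 2). This difference was found after seeing the values, and neither gene was called in rox2 without CoCl2 (0.72, SE 0.398, for LSC1 and -0.28, SE 0.444, for LSC2).

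**Figure D3:**
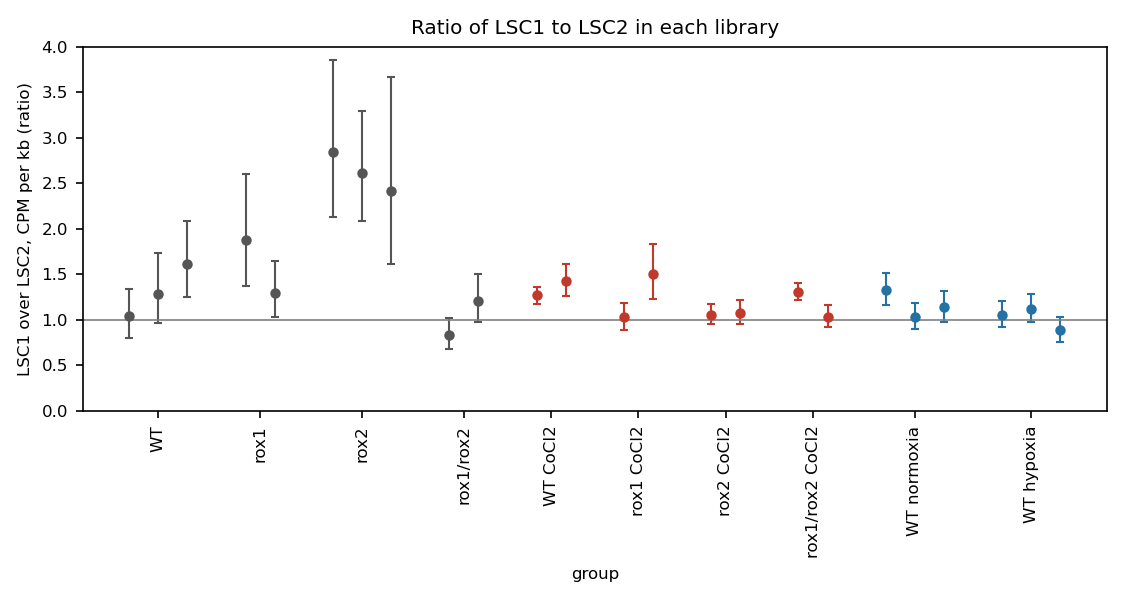
Ratio of LSC1 to LSC2 in CPM per kb (vertical) in each library, by group (horizontal). Bars are exact binomial 95% intervals for counting error. The 3 untreated rox2 libraries lie between 2.42 and 2.85 and all others at or below 1.88.

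IDP2 had the largest change of the 6 genes with CoCl2 in each of the 4 strains. Its level was 1.95, 0.976 and 1.27 CPM in WT and 83.3 and 37.1 in WT CoCl2. In rox1 it was 0.891 and 1.71 CPM against 19.7 and 6.64 with CoCl2. In rox2 it was 0.372, 0.341 and 2.34 against 91.8 and 47.0, and in rox1/rox2 3.56 and 3.55 against 50.7 and 43.2. All 8 treated libraries were above all 10 untreated ones. Log2 fold changes were 5.41 (SE 0.578) in WT, 3.26 (SE 0.704) in rox1, 6.36 (SE 0.646) in rox2 and 3.72 (SE 0.635) in rox1/rox2, and all 4 were called. Untreated levels rested on as few as 3 counts, so the size of these folds is imprecise. The call in rox1 was lost without replicate 1 of rox1 (2.91) or replicate 1 of rox1 CoCl2 (2.29), and that in rox1/rox2 without replicate 1 or replicate 2 of rox1/rox2 (3.72 in each case).

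Its order of means was rox2 CoCl2 (69.4 CPM), WT CoCl2 (60.2), rox1/rox2 CoCl2 (47.0), rox1 CoCl2 (13.2), rox1/rox2 (3.56), WT (1.40), rox1 (1.30) and rox2 (1.02). The first 3 overlapped in this order and so did the last 3, while rox1 CoCl2 and rox1/rox2 were each free of overlap with their neighbours. In the oxygen experiment IDP2 was at 9.33, 10.4 and 7.52 CPM in normoxia and at 11.4, 11.6 and 10.5 in hypoxia. The libraries did not overlap, but the log2 fold change of 0.30 (SE 0.146) was not called. The WT level of 9.09 CPM in normoxia was above the 1.40 CPM of untreated WT in the deletion experiment. These were scaled apart, and the 2 experiments differ in culture time, read length and library type, so this difference was not tested.

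The other isocitrate dehydrogenases that use NADP had log2 fold changes below 1 in WT. IDP1, the mitochondrial form in S. cerevisiae, was at 186 ± 5.20 CPM in WT (SD, n = 3) and 184 ± 19.8 in WT CoCl2 (n = 2), a log2 fold change of -0.02 (SE 0.135, adjusted p = 0.901). IDP3, the peroxisomal form, was at 11.2 ± 0.733 CPM in WT and 18.3 ± 6.67 in WT CoCl2 (0.71, SE 0.245, adjusted p = 0.0278). The call of IDP3 ended without any of the 3 WT libraries or replicate 1 of WT CoCl2 (adjusted p 0.0677 to 0.524). IDP1 rose with CoCl2 in rox2 by 0.53 (SE 0.134, adjusted p = 0.00584) and was lower at 1% oxygen by a small amount (-0.22, SE 0.047, adjusted p = 0.0243). That last call was lost without any of 5 of the 6 libraries (adjusted p 0.0515 to 0.114).

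MAE1 was at 164, 176 and 152 CPM in WT and at 121 and 192 in WT CoCl2, which overlapped. Its mean was highest in rox1, with libraries at 351 and 270 CPM without and 291 and 355 with CoCl2. MAE1 was lowest in rox1/rox2, at 56.5 and 73.1 without and 37.7 and 71.4 with CoCl2. In rox2 the untreated libraries were at 292, 302 and 129 CPM and the CoCl2 libraries at 76.8 and 119, with no overlap. Replicates 1 and 2 of untreated rox2 lay within the range of untreated rox1. The lower one, replicate 3, is the library with 14.5% of reads outside genes. The log2 fold change with CoCl2 was -0.07 (SE 0.352) in WT, 0.06 (SE 0.383) in rox1, -1.30 (SE 0.367, called) in rox2 and -0.25 (SE 0.392) in rox1/rox2. The call in rox2 was lost without replicate 1 of rox2 CoCl2, at -1.02, the library with 19.9% of reads outside genes. With total gene counts the value in WT had the other sign, at 0.15, and was not called.

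Between strains, MAE1 was higher in rox1 than in WT without CoCl2 (0.92, SE 0.346) and with it (1.05, SE 0.388), with no overlap of libraries, and neither difference was called by edgeR. DESeq2 called the one with CoCl2, at 1.04, and a fit of the 2 groups alone the one without it, at 0.91. MAE1 was lower in rox1/rox2 than in WT without CoCl2 (-1.34, SE 0.370, not called) and with it (-1.52, SE 0.396, called). The difference without CoCl2 was called by DESeq2 (-1.32) and in a fit of the 2 groups alone (-1.35). The call with CoCl2 was lost without replicate 2 of WT CoCl2 (-1.15), replicate 1 of rox1/rox2 CoCl2 (-1.13) or replicate 2 of rox1/rox2 CoCl2 (-2.05). The means ran from rox1 CoCl2 (323 CPM) over rox1 (310), rox2 (241), WT (164), WT CoCl2 (156), rox2 CoCl2 (97.7) and rox1/rox2 (64.8) to rox1/rox2 CoCl2 (54.6). Overlap with the next was absent for WT CoCl2 and rox2 CoCl2.

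NDE1 stood at 3.73, 4.26 and 8.23 CPM in WT and at 102 and 169 in WT CoCl2. In rox2 it was at 17.7, 27.7 and 30.0 CPM without and at 166 and 136 with CoCl2. In rox1 it was at 3.57 and 4.31 without and 12.8 and 4.40 with CoCl2, and in rox1/rox2 at 2.77 and 2.42 against 17.3 and 5.74. Each strain had its CoCl2 libraries above its untreated ones, and the 4 CoCl2 libraries without ROX1 (4.40 to 17.3 CPM) were all below the 4 with it (102 to 169). The log2 fold change with CoCl2 was 4.66 (SE 0.477) in WT, 2.60 (SE 0.433, adjusted p = 0.000392) in rox2, 1.10 (SE 0.578, adjusted p = 0.274) in rox1 and 2.18 (SE 0.632, adjusted p = 0.0582) in rox1/rox2. The rise in rox1/rox2 was called by DESeq2 (2.14, adjusted p = 0.0051) and by edgeR with total gene counts (2.36, adjusted p = 0.0483). It was not called with RLE size factors, with the replicate block or in a fit of the 2 groups alone.

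Compared directly in CoCl2, NDE1 was lower in rox1 than in WT by a log2 difference of -3.99 (SE 0.540, adjusted p = 0.000863) and in rox1/rox2 by -3.52 (SE 0.526, adjusted p = 0.00206), while rox2 and WT overlapped (0.16, SE 0.462, adjusted p = 0.877). In a fit of the compared groups alone the call in rox1/rox2 was lost (-3.49, adjusted p = 0.221). The 3 comparisons share the same 2 WT CoCl2 libraries, on which NDE1 had been chosen, so the choice favours a lower level in each deletion strain. The change with CoCl2 itself was smaller in rox1 than in WT by 3.57 on the log2 scale (log2 difference -3.57, SE 0.753, adjusted p = 0.0266). NDE1 had been chosen for its change with CoCl2 in WT, and the difference uses those WT libraries again, so the choice itself favours a smaller change in rox1. It was the only call among the 6 genes in the 3 such comparisons with WT, where 4.71% of all genes were called for rox1, 0.0902% for rox2 and 0.397% for rox1/rox2. For rox2 and rox1/rox2, 0 of the 6 were called by edgeR, 4 and 1 had an unadjusted p under 0.05, and DESeq2 called 1 in each. The edgeR call of NDE1 for rox1 was lost without replicate 1 or 2 of WT (adjusted p 0.0832 and 0.0854). It was lost too without replicate 1 of rox1 or replicate 2 of rox1 CoCl2. Over those 4 fits the difference was -3.65 to -2.98. For rox1/rox2 against WT it was -2.49 (SE 0.826, adjusted p = 0.17), and for rox2 against WT -2.07 (SE 0.639, adjusted p = 0.193).

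Without CoCl2, NDE1 was higher in all 3 rox2 libraries than in all 3 WT libraries, by a log2 fold change of 2.22 (SE 0.441) that was not called. It was called by DESeq2 and in a fit of the 2 groups alone. In rox1 it overlapped with WT (-0.43, SE 0.550, adjusted p = 0.889), and in rox1/rox2 it was below every WT library (-1.03, SE 0.622, adjusted p = 0.38). The group means ran from rox2 CoCl2 (151 CPM) over WT CoCl2 (136), rox2 (25.1), rox1/rox2 CoCl2 (11.5), rox1 CoCl2 (8.59), WT (5.41) and rox1 (3.94) to rox1/rox2 (2.60). WT CoCl2, rox2 and rox1 were each clear of the group below them, and the other neighbours overlapped.

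**Figure D4:**
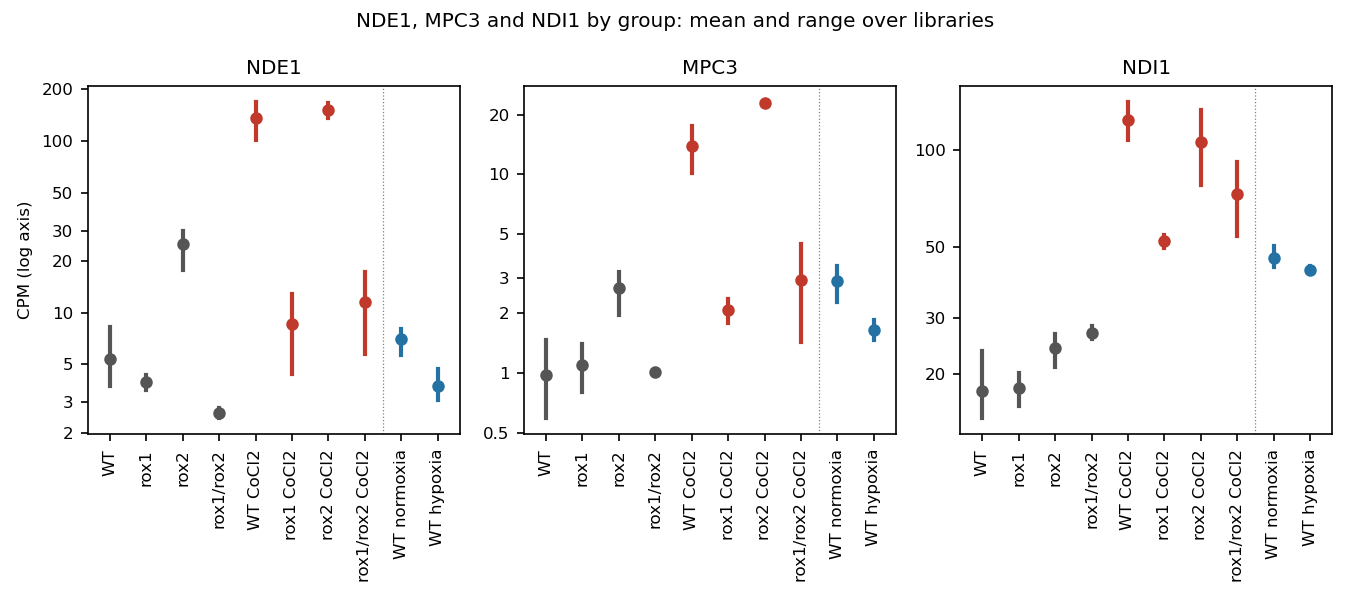
Level in CPM on a log axis (vertical) of NDE1, MPC3 and NDI1 by group (horizontal). Points are means and bars the range over 2 or 3 libraries. With CoCl2, NDE1 and MPC3 were at or below 17.3 and 4.46 CPM in the strains without ROX1, while NDI1 was at or above 49.5 CPM in every strain.

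NDI1, the dehydrogenase that oxidises NADH on the inner side of the same membrane, responded in all 4 strains. It was at 17.7 ± 5.27 CPM in WT (SD, n = 3) and 124 ± 23.9 in WT CoCl2 (n = 2), and its log2 fold change was 2.82 (SE 0.277, adjusted p = 5.81e-06) in WT, 1.53 (SE 0.313, adjusted p = 0.00791) in rox1, 2.12 (SE 0.274, adjusted p = 5.88e-05) in rox2 and 1.44 (SE 0.310, adjusted p = 0.0173) in rox1/rox2. Its response was smaller in rox1 than in WT by a margin that edgeR did not call (-1.29, SE 0.413, adjusted p = 0.08) and DESeq2 did (-1.32, adjusted p = 0.0379). MPC3, a subunit of the mitochondrial pyruvate carrier, is the gene after LSC2 in the annotation table, yet its levels were ordered like those of NDE1 with CoCl2: 10.2 and 17.5 CPM in WT, 22.5 and 23.2 in rox2, 1.80 and 2.37 in rox1 and 1.43 and 4.46 in rox1/rox2. MPC3 rose with CoCl2 in WT by 3.82 (SE 0.426, adjusted p = 1.67e-05) and in rox2 by 3.12 (SE 0.390, adjusted p = 4.46e-05), and its response in rox1 was smaller than in WT (-2.87, SE 0.728, adjusted p = 0.0426), a call that leaving out most single libraries of those groups ended (adjusted p up to 0.181).

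At 1% oxygen, NDE1 was at 3.09, 3.48 and 4.71 CPM against 7.29, 8.03 and 5.68 in normoxia, and MAE1 at 43.9, 54.7 and 62.4 against 95.2, 103 and 67.9. For both genes every hypoxia library was below every normoxia library. Log2 fold changes were -0.90 (SE 0.210) for NDE1 and -0.72 (SE 0.160) for MAE1, and both were called lower. Among all 5559 genes 2.64% were called higher and 3.85% lower. NDE1 had been chosen on this comparison and what led to MAE1 is not recorded, so nothing is read from these calls. Replicate numbers paired in this experiment, and with a replicate block 741 genes were called in place of 361, MAE1 and NDE1 again among them. The call of NDE1 was lost without replicate 1 or 2 of either group and that of MAE1 without replicate 1 of normoxia or replicate 1 or 2 of hypoxia, with log2 fold changes of -0.87 to -0.78 and -0.74 to -0.60.

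ALD6 was at 1048, 1047 and 1137 CPM in WT and at 717 and 628 in WT CoCl2, with no overlap. In rox2 it was at 507, 464 and 534 CPM without and at 584 and 538 with CoCl2. In rox1/rox2 it was at 1709 and 1447 without and 1152 and 950 with CoCl2, and in rox1 at 978 and 683 against 568 and 455. CoCl2 libraries were below untreated ones in 3 strains and above them in rox2. The log2 fold change was -0.68 (SE 0.195, called) in WT, -0.70 (SE 0.211, adjusted p = 0.0563) in rox1, 0.16 (SE 0.191, adjusted p = 0.493) in rox2 and -0.59 (SE 0.210, adjusted p = 0.108) in rox1/rox2. The call in WT was lost with total gene counts, at -0.43, and without replicate 2 of WT CoCl2, at -0.59. The change in rox2 differed from that in WT by 0.84 (SE 0.271, adjusted p = 0.207), which edgeR did not call and DESeq2 did (0.86, adjusted p = 0.0348). ALD6 had been chosen for rox2 against WT without CoCl2, where it was lower, and both of those groups enter this difference. The choice itself favours a positive value, so it is no independent support.

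Among the 3 deletions without CoCl2, ALD6 in rox2 was the only call of the 6 genes, at -1.10 (SE 0.173). In rox2, 4 of all 5544 genes (0.0722%) were called. ALD6 had been chosen on this comparison, so nothing is read from its call. That call was lost without any of the 3 WT libraries or replicate 1 or 2 of rox2, with log2 fold changes from -1.13 to -1.06. In rox1, 0 of the 6 genes were called by edgeR's quasi-likelihood test against 0.0541% of all genes (1 at an unadjusted p under 0.05, 0 by DESeq2), and in rox1/rox2 0 were called against 0.108% (4 at an unadjusted p under 0.05, 2 by DESeq2). These counts depend on the spread shared over all groups. Fits of the 2 compared groups alone called 1 of the 6 in rox1 and 6 in rox1/rox2, beside 39 and 2796 genes of all. The 0 calls are therefore not read as unchanged levels. In the fit over all groups, 3 genes of all were higher and 3 lower in rox1/rox2 with TMM, against 5 and 1 with total gene counts, which put the median of all genes at 0.28. ALD6 itself was above every WT library in rox1/rox2 (0.55, SE 0.189, adjusted p = 0.199). Its means ran from rox1/rox2 (1580 CPM) over WT (1080), rox1/rox2 CoCl2 (1050), rox1 (830), WT CoCl2 (672), rox2 CoCl2 (561) and rox1 CoCl2 (511) to rox2 (501), and rox1/rox2 and WT CoCl2 were the groups clear of the next. In normoxia ALD6 was at 1524 to 1642 CPM and in hypoxia at 1635 to 1841, which overlapped (0.11, SE 0.061).

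In CoCl2, 4 of the 6 genes were called lower in rox1 than in WT, where 12.9% of all genes were lower and 4.65% higher: NDE1, LSC1 (-1.95, SE 0.463, adjusted p = 0.0129), LSC2 (-1.77, SE 0.492, adjusted p = 0.0254) and IDP2 (-2.21, SE 0.544). For each of these the 2 rox1 CoCl2 libraries were below the 2 WT CoCl2 libraries. LSC1, LSC2 and NDE1 had been chosen for their change with CoCl2 in WT, and the same 2 WT CoCl2 libraries are the reference here. The choice favours lower levels in the deletion strains with CoCl2, so nothing is read from the counts of the 6 genes. The calls of LSC1, LSC2 and IDP2 were lost without replicate 1 of WT CoCl2 (-1.39, -1.08 and -1.50) and without replicate 2 of rox1 CoCl2 (-1.60, -1.23 and -1.62), and that of NDE1 was kept. In a fit of the 2 groups alone those of LSC1 and LSC2 (adjusted p 0.0851 and 0.151) and of IDP2 were lost as well. In rox1/rox2, 2 were called lower (NDE1 and MAE1), against 3.77% of all genes lower and 1.24% higher. There LSC1 (-0.01, SE 0.442, adjusted p = 0.995) and LSC2 (0.14, SE 0.472, adjusted p = 0.918) overlapped with WT CoCl2. With total gene counts 85 genes were higher and 85 lower in rox1/rox2, against 69 and 209 with TMM, and the median of all genes was 0.13. In rox2, 0 of the 6 were called by edgeR (0 at an unadjusted p under 0.05, 0 by DESeq2), against 3.57% of all genes, 149 higher and 49 lower with TMM and 89 and 14 with total gene counts.

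Tested as a difference in the change with CoCl2, the smaller responses of the ligase genes and IDP2 in rox1 were not called. The log2 differences from WT were -2.19 (SE 0.636, adjusted p = 0.0621) for LSC1, -1.80 (SE 0.682, adjusted p = 0.125) for LSC2 and -2.15 (SE 0.986, adjusted p = 0.196) for IDP2. That of LSC1 was called by DESeq2 (adjusted p = 0.014) and in a fit of the 4 groups alone (adjusted p = 0.0452). In rox1/rox2 they were -1.15 (SE 0.622, adjusted p = 0.414), -1.39 (SE 0.662, adjusted p = 0.35) and -1.69 (SE 0.878, adjusted p = 0.388), and in rox2 -1.31 (SE 0.598, adjusted p = 0.342), -0.01 (SE 0.673, adjusted p = 0.996) and 0.95 (SE 0.958, adjusted p = 0.705). MAE1 differed from its WT response by 0.13 for rox1, -1.23 for rox2 and -0.18 for the double deletion, none called.

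Compared per kb of coding length, the levels of the 6 genes lay far apart without CoCl2. In WT, ALD6 had 718 CPM per kb and IDP2 1.12, a ratio of 641, with MAE1, LSC1, LSC2 and NDE1 between them in that order. In WT CoCl2, ALD6 remained the highest at 448 and IDP2 the lowest at 48.4, a ratio of 9.26, and LSC1 and NDE1 stood above MAE1. In rox1 CoCl2 the ratio was 65.6 and NDE1 was the lowest of the 6, at 5.20. In rox2 CoCl2 it was 7.57, with NDE1 second to ALD6 and MAE1 the lowest.

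Around the 6 genes, 6 lists were written by S. cerevisiae name, of which 63 of 78 symbols were matched in N. castellii. The 6 genes are in 5 of them, and the list of the glyoxylate cycle and gluconeogenesis holds none. Counts in WT with CoCl2 stand beside the 27.7% of all genes called higher and 19.4% called lower there. Of the 12 other TCA-cycle genes, 11 were called higher with CoCl2 in WT, 0 lower, with a median log2 fold change of 1.27 against 0.00 for all genes. They were led by the succinate dehydrogenase subunits SDH4 (2.93, SE 0.346, adjusted p = 2.58e-05) and SDH1 (1.85, SE 0.350, adjusted p = 0.000802), with KGD2 of the 2-oxoglutarate dehydrogenase complex at 1.75 (SE 0.264, adjusted p = 0.000154) and the citrate synthase CIT3 at 1.74 (SE 0.299, adjusted p = 0.000404). FUM1, the fumarase, named after its value was seen, was the gene not called, at 0.26. In rox2, 8 of the 12 were called higher (median 0.94), beside 26.3% of all genes. In rox1/rox2 1 was called higher (median 0.52), beside 4.38% of all genes. In rox1 0 were called (median 0.28, with 3 at an unadjusted p under 0.05 and 1 called by DESeq2), beside 4.85% of all genes higher. Few genes of any kind were called in these last 2 strains, so nothing particular to the list is read from its low counts there. LSC1 and LSC2 had larger changes than the median in each strain. At 1% oxygen 0 of the 12 were called by edgeR, by DESeq2 or with the replicate block, and 4 had an unadjusted p under 0.05 (median -0.11).

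Of 9 other genes of NADPH supply, 6 were called higher with CoCl2 in WT and 0 lower (median 0.73). They included SOL4 (2.73) and SOL3 (1.13), 6-phosphogluconolactonases, UTR1 (1.12), an NAD kinase, and ZWF1 (0.98), glucose-6-phosphate dehydrogenase, the entry to the pentose phosphate pathway. SOL4, UTR1 and ZWF1 were not called without replicate 1 of WT CoCl2, at 2.08, 0.62 and 0.30. Thus IDP2 rose, ALD6 was lower and MAE1 was at -0.07 in a list in which most genes were higher.

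Of 5 other NADH dehydrogenase and shuttle genes, 4 were called higher with CoCl2 in WT: DLD1, D-lactate dehydrogenase (3.63, SE 0.299, adjusted p = 1.38e-06), NDI1, MCR1, a mitochondrial NADH-cytochrome b5 reductase (2.17, SE 0.212, adjusted p = 5.81e-06), and GUT2, mitochondrial glycerol-3-phosphate dehydrogenase (1.84, SE 0.318, adjusted p = 0.000418). NDE1 had the largest change in this list. The responses of DLD1 (-1.79, SE 0.437, adjusted p = 0.0373) and MCR1 (-1.45, SE 0.316, adjusted p = 0.0285) were smaller in rox1 than in WT, as was that of NDE1. DLD1 and MCR1, like MPC3, were named for a large change in WT, which favours a smaller one in rox1 for them too. Leaving out single libraries of those groups ended both calls in most cases, with adjusted p up to 0.191 for DLD1 and 0.155 for MCR1. At 1% oxygen MCR1 was called lower with the replicate block (-0.24, adjusted p = 0.0414) and not without it (adjusted p = 0.113).

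Around ALD6, 3 of 7 other aldehyde and acetate genes were called higher with CoCl2 in WT and 1 lower, beside 27.7% and 19.4% of all genes, and nothing particular to the list is read from this. The acetyl-CoA synthetase ACS1 was at 3.39 (SE 0.486, adjusted p = 0.000107), the acetyl-CoA hydrolase ACH1 at 1.79 (SE 0.451, adjusted p = 0.00553), the fatty aldehyde dehydrogenase HFD1 at 0.94 (SE 0.172, adjusted p = 0.000606), and PDC1, pyruvate decarboxylase, which makes the acetaldehyde that Ald6 uses, at -1.54 (SE 0.352, adjusted p = 0.00291). ACH1 and PDC1 were not called without replicate 1 of WT CoCl2, at 1.47 and -1.19. The mitochondrial aldehyde dehydrogenases ALD4 (0.78, SE 0.370, adjusted p = 0.0975) and ALD5 (-0.45, SE 0.218, adjusted p = 0.101) did not pass, and for ALD4 the 2 WT CoCl2 libraries were at 135 and 368 CPM. At 1% oxygen ALD4 rose from 266 ± 14.3 to 403 ± 7.43 CPM (SD, n = 3 each, log2 fold change 0.60, SE 0.053, adjusted p = 0.000162). With the replicate block ACS1 (0.47, adjusted p = 0.00793) and PDC1 (-0.22, adjusted p = 0.00634) were called there too.

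Near MAE1, 5 of 13 other genes of pyruvate entry and mitochondrial carriers were called higher with CoCl2 in WT and 1 lower (median 0.38), beside 27.7% and 19.4% of all genes, and here too nothing is read from the count. Beside MPC3 they included MPC1, another pyruvate carrier subunit (0.83), and PDB1 of pyruvate dehydrogenase (0.82), which were not called without replicate 1 of WT CoCl2, at 0.40 and 0.49, and YHM2, a citrate carrier, was lower (-0.81, SE 0.176, adjusted p = 0.00213). In the glyoxylate cycle and gluconeogenesis list, 7 of 11 were called higher and 0 lower (median 0.91), led by CIT2, the peroxisomal citrate synthase (2.16), ICL2, a 2-methylisocitrate lyase (2.00), PCK1, phosphoenolpyruvate carboxykinase (1.57), and MDH2, cytosolic malate dehydrogenase (1.37). Without replicate 1 of WT CoCl2, the genes called in either direction, members of the 6 included, were 4 in place of 8 in the NADPH list, 3 in place of 5 in the aldehyde list, 2 in place of 6 in the pyruvate list and 4 in place of 7 in the glyoxylate list. At 1% oxygen edgeR and DESeq2 each called 0 of the other genes of the pyruvate and glyoxylate lists, where 1 in each had an unadjusted p under 0.05. With the replicate block 1 was called, DIC1, a mitochondrial dicarboxylate carrier (-0.20, SE 0.057, adjusted p = 0.0467), named after its value was seen.

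**Figure D5:**
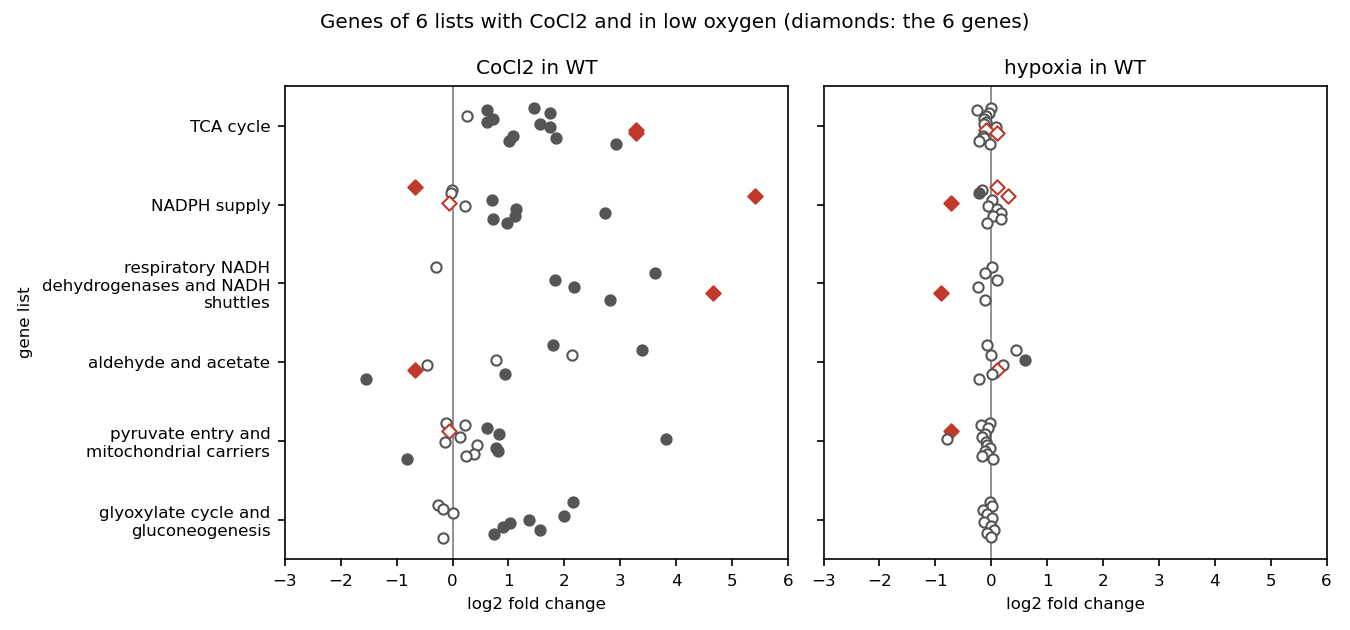
Log2 fold change (horizontal) of the genes of 6 lists (vertical) with CoCl2 in WT and at 1% oxygen in WT. Red diamonds are the 6 genes described, circles the other list genes, and filled symbols have an adjusted p under 0.05. With CoCl2, 11 of the 12 TCA-cycle circles were called higher, beside 27.7% of all genes higher and 19.4% lower. At 1% oxygen NDE1 and MAE1 were the diamonds called, both lower, beside 2.64% of all genes higher and 3.85% lower. LSC1, LSC2 and NDE1 had been chosen with results of these comparisons known, so nothing is read from the diamonds called.

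The genes whose log2 CPM was most like that of each gene over the 18 libraries of the deletion experiment were taken from 4783 genes, with Pearson's r as the measure. For NDE1 they were NCAS0B02500 (0.983), HMS1 (0.981) and PET494 (0.979), of which NCAS0B02500 may share reads with near-identical copies. For LSC1 they were GUT2 (0.972), UBP15 (0.971) and ATP3 (0.969), and for LSC2 NCAS0A03130 (0.984), MRX18 (0.979) and NCAS0C04110 (0.979). For IDP2 they were DCS2 (0.982), NCAS0I03000 (0.979) and UGA1 (0.976). MAE1 and ALD6 had looser company: REA1 (0.920), YEF3 (0.912) and NCAS0C05660 (0.912) for MAE1, and the HSP90 gene HSC82 (0.932), its co-chaperone AHA1 (0.911) and the HSP70 gene SSA2 (0.879) for ALD6. Among the 6 genes themselves, r was 0.888 between LSC1 and IDP2, 0.939 between LSC2 and IDP2, 0.626 between LSC1 and NDE1 and -0.581 between MAE1 and ALD6. The libraries share their treatment groups, so these values are descriptions.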

How the data were processed

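RNA of 24 libraries was sequenced, as single-end 42 bp reads in the deletion experiment and as paired 90 bp reads in the oxygen experiment, per the labels' protocols. The authors deposited raw counts per exon for each library. Per the submitters' processing notes, TopHat2 and HTSeq 0.6.0 were used. Build, annotation and strandedness of the counting are not given in the sources used here. Exon counts were summed per gene, and 5 counter entries that name no gene were left out of library sizes and tests. Symbols came from the RefSeq table by locus tag, and no sequence was used here.

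The 2 experiments were fitted apart with edgeR 4.0.16 (R 4.3.3): filterByExpr with a minimum count of 10, TMM scaling and the quasi-likelihood test over all groups, with Benjamini-Hochberg adjustment over all 5544 or 5559 tested genes. DESeq2 1.42.0 and the other alternatives are given in the closing section. Counts were simulated for 5648 genes with 200 changed 4-fold. For CoCl2 in WT the edgeR fit recovered 200 and called 15 unchanged genes. For 1% oxygen it recovered 200 and called 7 unchanged genes. Recovery of changes smaller than 4-fold, or at counts as low as the 3 of IDP2, was not tested. Recovery under the uneven spread of the real replicates was not tested either. Gene counts per library were 5.59 M to 12.74 M. Each p-value tests a difference against the spread between libraries, estimated over all groups of that experiment, with 2 or 3 libraries per group. The genes and lists were chosen with earlier results of these data known. Named beside the 6 genes were their isoenzymes, up to 4 called genes per list with the largest change with CoCl2 in WT and up to 2 at 1% oxygen, and the 3 most alike genes of each. Same-numbered libraries deviated together in the oxygen experiment (correlations 0.152, 0.307 and 0.137), so its numbers were taken as pairs. Values printed for it come from the fit without the block, and blocked values stand beside calls that the block changes.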

Additional observations from a re-analysis of the deposited data

Results flagged for a closer look

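Of 34 genes, the 6 described and 28 list genes, 6 had a change with CoCl2 that differed between rox1 and WT in a test of that difference over all genes, each smaller in rox1. Over all 5544 genes 4.71% were called, 216 smaller or more negative in rox1 and 45 the other way. NDE1 and the list genes were named for their change with CoCl2 in WT, and the difference uses those WT libraries again, so the choice favours a smaller change in rox1 and these values are no independent support. The log2 difference was -3.57 for NDE1 (SE 0.753, adjusted p = 0.0266), -2.87 for MPC3 (SE 0.728, adjusted p = 0.0426), -1.79 for DLD1 (SE 0.437, adjusted p = 0.0373) and -1.45 for MCR1 (SE 0.316, adjusted p = 0.0285). It was -2.81 for ACS1 (SE 0.721, adjusted p = 0.0428) and -2.64 for ACH1 (SE 0.702, adjusted p = 0.048). Each of these calls was lost when certain single libraries were left out, with adjusted p up to 0.129 for NDE1, 0.181 for MPC3, 0.191 for DLD1, 0.155 for MCR1, 0.217 for ACS1 and 0.184 for ACH1. With total gene counts those of DLD1, ACS1, ACH1 and MPC3 were lost too (adjusted p 0.0758, 0.0752, 0.0755 and 0.0605), and with the replicate block that of ACH1 (-2.47, adjusted p = 0.0537). Groups of 2 or 3 libraries are too small for a test of outlying libraries.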

How the results depend on the processing

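No called log2 fold change of the 6 genes changed sign under any alternative run. Of their fold changes, 25 of 528 gained a call and 10 lost one under other settings. The sign changed in 9 of 528 values under other settings and in 37 of 480 with single libraries left out.

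Genes called varied more. DESeq2 called 735 genes with CoCl2 in rox1 and 686 in rox1/rox2, 45, 65 and 167 without CoCl2 in rox1, rox2 and rox1/rox2, 590 and 477 with CoCl2 in rox2 and rox1/rox2, and 645, 148 and 227 for the differences in response in rox1, rox2 and rox1/rox2. Of the 6 genes it called 3 with CoCl2 in rox1, 5 in rox1/rox2, 2 in rox2 and 2 in rox1/rox2 without CoCl2, and 2, 1 and 1 for the differences in response. Fits of the compared groups alone called 52, 1631 and 77 genes with CoCl2 in rox1, rox2 and rox1/rox2, 39, 29 and 2796 without CoCl2, 98, 0 (516 at an unadjusted p under 0.05) and 4 with CoCl2, and 0 (745) and 134 for the differences in response in rox2 and rox1/rox2. Of the 6 genes they called 0 with CoCl2 in rox1, 1, 2 and 6 in rox1, rox2 and rox1/rox2 without CoCl2, 1 and 0 in rox1 and rox1/rox2 with it, and 2 for the difference in response in rox1. Calls these fits ended include IDP2 with CoCl2 in rox1 (3.28), MAE1 with CoCl2 in rox2 (-1.29), LSC1 with CoCl2 in rox1/rox2 (2.12) and MAE1 in rox1/rox2 with CoCl2 (-1.51). Total gene counts gave 103 and 170 genes in rox2 and rox1/rox2 with CoCl2, and 85 and 0 (549) for the differences in response in rox1 and rox2. RLE size factors called 2 of the 6 genes with CoCl2 in rox1. The cause was not tested.

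The replicate block called 741 genes at 1% oxygen, 8 in rox2 without CoCl2, 435 and 0 (791 at an unadjusted p under 0.05) for the differences in response in rox1 and rox2, and 2 of the 6 genes with CoCl2 in rox1. It also called MAE1 in rox1 with CoCl2 (1.07) and the smaller responses in rox1 of NDI1 (-1.37, adjusted p = 0.0492), SDH4 (-2.20, adjusted p = 0.0168) and MPC1 (-1.33, adjusted p = 0.0338). In the deletion experiment same-numbered libraries of the CoCl2 groups deviated together (correlations 0.244 to 0.732), while those of WT and rox2 did not (-0.200 to 0.094). With 2 libraries in a CoCl2 group and no label that ties the numbers, these were not taken as pairs. With the numbers of rox1 CoCl2 crossed, as the same-numbered libraries correlated at -0.130, 402 genes were called with CoCl2 in rox1, chosen after seeing the data. Without replicate 3 of rox2 and replicate 1 of rox2 CoCl2, also chosen then, 19 genes were called in rox2 without CoCl2, 407 with it and 213 for the difference in response. As a ratio of raw counts, LSC1 to LSC2 had a median of 0.843 in the oxygen experiment.

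With single libraries left out, genes called ranged from 169 to 411 at 1% oxygen, 1470 to 2721, 126 to 930, 1493 to 2824 and 40 to 390 with CoCl2 in WT, rox1, rox2 and rox1/rox2, 2 to 291, 1 to 23 and 3 to 4 in rox1, rox2 and rox1/rox2 without CoCl2, 94 to 1347, 10 to 152 and 51 to 252 with it, and 19 to 504, 0 to 164 and 4 to 188 for the differences in response. Of the 6 genes, 0 to 2 were called at 1% oxygen, 4 to 5, 0 to 2, 4 to 5 and 0 to 4 with CoCl2, 0 to 1 in rox2 without it, 1 to 4 and 1 to 2 in rox1 and rox1/rox2 with it, and 0 to 3 and 0 to 1 for the differences in rox1 and rox1/rox2. Depth limits IDP2 most, with as few as 3 counts.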
